A study of Rattus norvegicus and Mus musculus with 56 samples.

Results

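A set of 10 genes of leukocyte integrins and cell adhesion was chosen by symbol and matched to Ensembl mouse identifiers, 10 of the 41388 counted. It holds the integrin α chain genes Itgam, Itgal, Itga4, Itga6 and Itgav, the β chain genes Itgb2, Itgb1 and Itgb5, and the ligand genes Icam1 and Vcam1. Messenger RNA was read in 24 libraries of the lumbar L4 and L5 dorsal horn from wild-type (WT) C57BL/6 mice, 7 days after surgery. The 4 groups were spared nerve injury (SNI) on the ipsilateral side, sham surgery on the ipsilateral side, SNI on the contralateral side and sham surgery on the contralateral side, with 6 libraries each, 3 female and 3 male. The ipsilateral side is called operated and the contralateral side unoperated. SNI, a model of neuropathic pain, cuts branches of the sciatic nerve and spares a neighbouring branch, and the study asked how the dorsal cord answers it in both sexes. The labels give no age, no count of animals behind a library and no tie between libraries and animals, so a p-value here speaks only of how much these libraries vary, which may be partly technical. The 32 rat libraries of the series were not used here.

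Integrins are receptors made of an α and a β chain, which span the membrane together and hold cells to matrix or to other cells. The β2 chain occurs on leukocytes and on microglia, the macrophages that live in brain and cord. With the αM chain it forms complement receptor CR3 (CD11b/CD18), which takes up complement-coated material. With the αL chain it forms LFA-1, a leukocyte receptor for ICAM-1. The β1 chain pairs with many α chains on most cells, α4β1 binds VCAM-1 on activated vessels, α6β1 binds laminin, and αvβ5 binds vitronectin and serves in the uptake of dying cells.

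The chains are told apart by sequence, and their short tails inside the cell carry the contacts that switch the receptors on. The coding sequence around these contacts is printed from an annotated transcript of each gene, the longest coding sequence that holds the stretch in its tail. Reads were counted per gene, so which transcripts they came from is not known. The bases in capitals mark, in the α chains, the codons for glycine, phenylalanine, phenylalanine, lysine and arginine next to the membrane. This stretch clasps the β chain in the resting receptor.
Itgam: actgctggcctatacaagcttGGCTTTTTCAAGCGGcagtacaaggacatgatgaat
Itgal: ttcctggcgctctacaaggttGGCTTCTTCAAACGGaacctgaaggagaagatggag
Itga4: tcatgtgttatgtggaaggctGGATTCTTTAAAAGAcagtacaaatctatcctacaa
Itga6: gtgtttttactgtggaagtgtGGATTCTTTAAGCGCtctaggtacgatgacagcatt
Itgav: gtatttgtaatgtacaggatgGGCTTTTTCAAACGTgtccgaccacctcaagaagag
In the β chains the capitals mark a motif in codons for asparagine, proline, any residue and tyrosine or phenylalanine, through which talin binds. It is the first of 2 matches in the tails of Itgb2 and Itgb1 and the only match in that of Itgb5.
Itgb2: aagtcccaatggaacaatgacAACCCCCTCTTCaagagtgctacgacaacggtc
Itgb1: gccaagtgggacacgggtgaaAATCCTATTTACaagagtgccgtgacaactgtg
Itgb5: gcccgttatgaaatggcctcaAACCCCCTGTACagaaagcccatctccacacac
Against the 15 capital bases of Itgam, counted from 1 at their 5′ end, Itgal differed at 2 positions (T6C and G12A), Itgav at 2 (G12A and G15T), Itga6 at 4 and Itga4 at 6. The longest run of bases that the Itgam transcript shared exactly with any of its nearest relatives was 16, with Itgax and with Itgad, and 13 with Itgal. Itgb2 shared at most 17 with Itgb1 and 14 with Itgb5. All sequences are from the GENCODE M21 transcripts of GRCm38.

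Gene reads per library ran from 27.98 M to 42.9 M, with a median of 32.6 M (M, megareads). All 6 markers of dorsal horn neurons were detected, with summed levels of 750 to 958 CPM (gene reads scaled to a common library size) in operated SNI libraries and 778 to 929 CPM in operated sham libraries. Of the microglia markers 12 of 13 were called higher on the operated side after SNI, with a median log2 fold change of 1.02 and summed levels of 559 to 875 CPM after SNI against 360 to 433 CPM after sham surgery. Of all genes tested, 1.9% were called higher there. None of 8 neutrophil, 8 border macrophage and monocyte, 5 red cell or 8 endothelial markers was called, nor any marker of pericytes, meningeal fibroblasts, astrocytes, oligodendrocytes, neurons or Schwann cells. All 8 neutrophil, 5 red cell, 6 motor neuron, 5 meningeal fibroblast and 5 oligodendrocyte markers were nevertheless lower after SNI in estimate. Their median log2 fold changes were -1.42, -0.87, -0.81, -0.30 and -0.11. Their part in the results was not tested beyond the values given beside them. The 8 T and NK cell markers, none of which was exactly 0 throughout a group, were too low to test, at summed levels of 0.303 to 1.38 CPM in operated SNI libraries and 0.257 to 1.11 CPM in operated sham libraries. Neutrophil markers stood apart in 2 libraries, at 203 CPM in operated sham female replicate 1 and 231 CPM in unoperated SNI male replicate 3, against 1.81 to 46.95 CPM in the other 22. In such tissue RNA, fewer cells of a type and less RNA per cell cannot be told apart.

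On the operated side 3 of the 10 genes were called higher after SNI and none lower: Itgam, Itgb2 and Itgb5. Called means an adjusted p under 0.05 over all 18058 genes tested with limma's trend method, and 2.02% of those genes were called in either direction (1.9% higher and 0.122% lower). All 10 genes passed the filter on low counts. The median log2 fold change was 0.14 for the 10 genes and -0.00 for all genes. The libraries titled 33 to 48 had 71.4 to 74.7% of their reads on genes and those titled 49 to 56 had 75.4 to 76.1%. In the first run alone, which has fewer libraries, Itgam stayed called, while Itgb2 (log2 0.68, limma adjusted p = 0.0593) and Itgb5 (0.38, adjusted p = 0.256) missed the threshold. With title range as a covariate over all operated libraries, Itgb2 and Itgb5 stayed called. The second run holds no male sham library, so the contrast averaged over the sexes could not be fitted in it.

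Itgam (ENSMUSG00000030786, chromosome 7 at 128062640 to 128118491, plus strand), the αM chain, had 51.02 CPM in the lowest, 69.5 CPM in the median and 79.9 CPM in the highest operated SNI library, against 22.7, 25.1 and 28.7 CPM in operated sham libraries. Every operated SNI library stood above every operated sham library. The means were 68.5 ± 10.8 CPM after SNI and 25.4 ± 2.42 CPM after sham surgery (SD, n = 6 each). Itgam rose 2.67-fold, a log2 fold change of 1.42 with a 95% interval of 1.21 to 1.62 (limma adjusted p = 3.8e-06). The counts behind a library ran from 1801 to 2804 reads after SNI and from 668 to 1007 reads after sham surgery.

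The annotation places a predicted gene, Gm49368 (ENSMUSG00000108596), on the same strand over 3450 bases of Itgam, 68.7% of its exon length. That identifier is not among the 41388 counted here. How reads over the shared stretch were assigned is not given in the sources used here, so the Itgam counts carry that uncertainty. They may include reads from Gm49368 transcripts. Opposite-strand overlaps were smaller: 11.7% of Icam1, 8.04% of Itga4, 5.90% of Itgav and 0.688% of Vcam1. The strand setting of the counting is not given in the sources used here, so reads of both strands cannot be told apart over those stretches.

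Itgb2 (ENSMUSG00000000290, chromosome 10 at 77530252 to 77565708, plus strand), the β2 chain that every leukocyte integrin of this class needs to reach the surface, had 10.8, 12.4 and 16.02 CPM in the lowest, median and highest operated SNI library, against 5.44, 6.93 and 10.05 CPM in operated sham libraries. The groups did not overlap, but the highest sham library came close. That library was female replicate 1, the operated sham library with the most neutrophil markers. Itgb2 rose 1.77-fold (log2 0.83, SE 0.117, limma adjusted p = 0.00094). Without that library and the sham library highest in red cell markers it remained called, with a log2 fold change of 0.91 (limma adjusted p = 0.000107).

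Complete separation of the 6 operated SNI libraries above the 6 operated sham libraries was seen for Itgam and Itgb2, 2 of the 10 genes, and for 1.21% of all genes tested. No member had every SNI library below every sham library, which 0.244% of genes did.

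**Figure D1:**
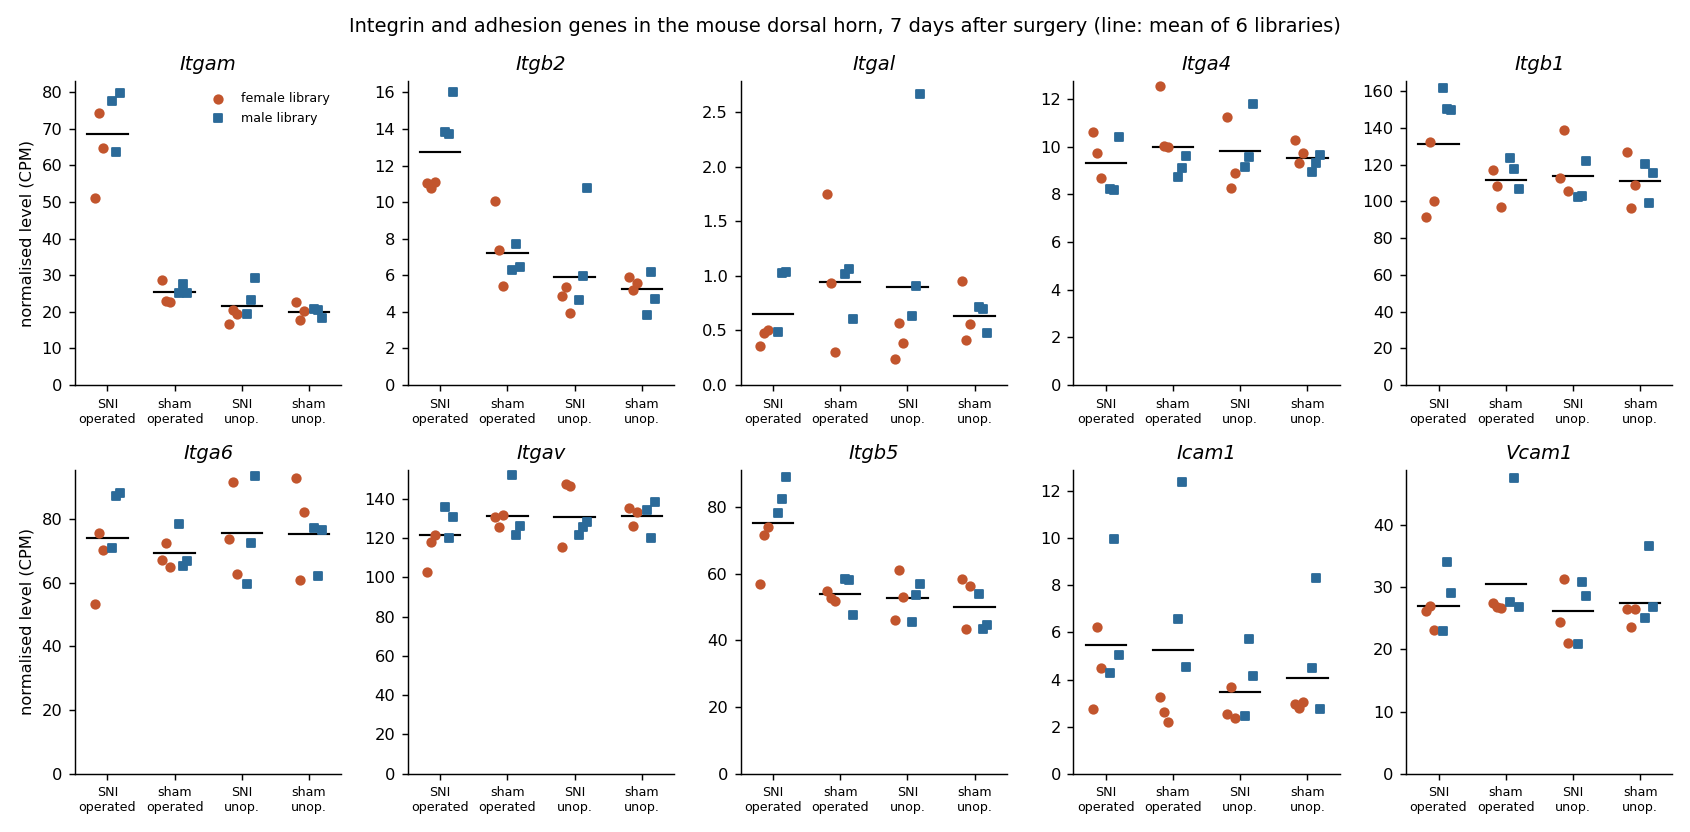
Normalised level in CPM (vertical axis, from 0) of each of the 10 genes in all 24 libraries, with circles for female and squares for male libraries and a line at the mean of each group of 6. Itgam and Itgb2 in operated SNI libraries lie above all operated sham libraries, whereas Itgal, Icam1 and Vcam1 vary through single high libraries.

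Itgal (ENSMUSG00000030830, chromosome 7 at 127296260 to 127335138, plus strand), the αL chain of LFA-1, was near the limit of these libraries. It had 0.357, 0.496 and 1.03 CPM in the lowest, median and highest operated SNI library, against 0.306, 0.977 and 1.75 CPM in operated sham libraries, which is 14 to 33 reads a library after SNI and 9 to 57 after sham surgery. The ranges overlapped almost wholly. The log2 fold change was -0.45 with a 95% interval of -1.17 to 0.27 (limma adjusted p = 0.653). Its highest levels of all, 2.66 CPM in unoperated SNI male replicate 3 and 1.75 CPM in operated sham female replicate 1, fell in the 2 libraries with the most neutrophil markers, and the other 22 libraries ran from 0.238 to 1.06 CPM. The part of those cells in the Itgal reads was not tested.

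Itga4 (ENSMUSG00000027009, chromosome 2 at 79255426 to 79333123, plus strand), the α4 chain of the VCAM-1 receptor, ran from 8.18 to 10.6 CPM (median 9.21) in operated SNI libraries and from 8.74 to 12.5 CPM (median 9.81) in operated sham libraries. The groups overlapped, and the log2 fold change was -0.10 with a 95% interval of -0.28 to 0.08 (limma adjusted p = 0.696). Its 2 highest libraries were again those with the most neutrophil markers, at 12.5 CPM and 11.8 CPM, while the other 22 ran from 8.18 to 11.2 CPM.

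Itgb5 (ENSMUSG00000022817, chromosome 16 at 33829665 to 33949338, plus strand), the β5 chain that pairs with αv, also rose. It had 56.9, 76.1 and 88.9 CPM in the lowest, median and highest operated SNI library, against 47.5, 53.8 and 58.4 CPM in operated sham libraries. Only SNI female replicate 1 lay within the sham range, and the other operated SNI libraries were above it. The log2 fold change was 0.47 (SE 0.0692, 1.39-fold, limma adjusted p = 0.00118).

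Its partner Itgav (ENSMUSG00000027087, chromosome 2 at 83724397 to 83806916, plus strand), the αv chain of the vitronectin receptors, was not called. It had 103, 121 and 136 CPM in the lowest, median and highest operated SNI library and 121, 128 and 152 CPM in operated sham libraries. The log2 fold change was -0.11 with a 95% interval of -0.24 to 0.01 (limma adjusted p = 0.482). The highest sham value, in male replicate 1, stood apart from the next at 132 CPM.

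Itgb1 (ENSMUSG00000025809, chromosome 8 at 128685654 to 128733200, plus strand), the common β1 chain, was the most spread of the abundant members after SNI, with 91.4, 141 and 162 CPM in the lowest, median and highest operated SNI library against 96.9, 113 and 123 CPM in operated sham libraries. Of the SNI libraries 4 lay above the sham range and 1 below it. The log2 fold change was 0.20 (95% interval 0.03 to 0.38), and the gene missed the threshold of limma (adjusted p = 0.336). Itga6 (ENSMUSG00000027111, chromosome 2 at 71745616 to 71858416, plus strand), the α6 chain of laminin receptors, had 53.3 to 88.1 CPM in operated SNI libraries and 65.0 to 78.3 CPM in operated sham libraries, with a log2 fold change of 0.08 (95% interval -0.11 to 0.28, limma adjusted p = 0.771).

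The ligands were not called. Icam1 (ENSMUSG00000037405, chromosome 9 at 21015985 to 21028817, plus strand), the vessel and glial ligand of LFA-1 and CR3, had 2.75, 4.75 and 9.95 CPM in the lowest, median and highest operated SNI library, against 2.21, 3.89 and 12.4 CPM in operated sham libraries. Vcam1 (ENSMUSG00000027962, chromosome 3 at 116109949 to 116129688, minus strand), the ligand of α4β1, had 23.03, 26.6 and 34.1 CPM after SNI and 26.7, 27.2 and 47.6 CPM after sham surgery. The log2 fold changes were 0.20 (95% interval -0.50 to 0.90) and -0.15 (95% interval -0.48 to 0.18), with limma adjusted p = 0.86 and 0.755.

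Male replicate 2 was the highest library of its group for both ligands, except for Vcam1 in unoperated SNI libraries, where female replicate 2 stood at 31.4 CPM. In operated libraries, SNI male replicate 2 held 9.95 CPM of Icam1 and 34.1 CPM of Vcam1, and sham male replicate 2 held 12.4 and 47.6 CPM. In unoperated libraries, SNI male replicate 2 held 5.72 and 30.8 CPM, and sham male replicate 2 held 8.32 and 36.6 CPM. The other 20 libraries ran from 2.21 to 6.57 CPM of Icam1 and from 20.9 to 31.4 CPM of Vcam1. These 4 libraries were also the ones with more than 1 CPM of Selp, the endothelial P-selectin, at 2.54 to 5.03 CPM against 0 to 0.594 CPM in the other 20. Sele, the endothelial E-selectin, had 1.14 to 2.50 CPM there against 0 to 0.250 CPM elsewhere. They bear consecutive titles, 49 and 50 after SNI and 37 and 38 after sham surgery. Their endothelial markers summed to 291 to 338 CPM, inside the 219 to 388 CPM of the other 20 libraries. Without them the operated side log2 fold change was 0.22 for Icam1 and -0.08 for Vcam1 (limma adjusted p = 0.817 and 0.781).

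Per exon length, the order of the genes on the operated side differed between SNI and sham surgery in the place of Itgam and in that of Itgb2 and Vcam1, which changed places within overlapping ranges. In TPM, the level per exon length scaled within a library, Itgam averaged 54.9 ± 8.09 TPM after SNI and had rank 3 on the operated side, and it averaged 19.99 ± 1.74 TPM after sham surgery and had rank 5 (SD, n = 6 each). Itgb1 led both orders, at 129 ± 26.4 TPM after SNI and 108 ± 7.72 TPM after sham surgery, followed by Itgb5 at 85.3 ± 10.5 TPM and 60.0 ± 4.22 TPM. After SNI the ranges of Itgam and Itgav overlapped (42.4 to 62.4 TPM and 39.9 to 50.7 TPM), and so did those of Itgb1 with Itgb5, Itgb2 with Vcam1 and Icam1 with Itga4. After sham surgery the ranges of Itgb5 and Itgav overlapped. Itgav (48.3 TPM) and Itga6 (30.3 TPM) stood above Itgam with no overlap of their ranges, while Itgam, Vcam1 (13.6 TPM), Itgb2 (9.36 TPM) and Icam1 (4.75 TPM) each overlapped the next. Itgal was last in both, at 0.394 TPM after SNI and 0.568 TPM after sham surgery.

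The unoperated side asked whether the difference lay on both sides of the cord. No member was called there, nor was any of the 18058 genes (0%), although 351 had an unadjusted p under 0.05. Itgam had 16.8, 20.01 and 29.4 CPM in the lowest, median and highest unoperated SNI library, against 17.8, 20.3 and 22.7 CPM in unoperated sham libraries, so the groups overlapped. Its log2 fold change was 0.08 with a 95% interval of -0.12 to 0.29. Itgb2 stood at 0.11 (95% interval -0.28 to 0.51) and Itgb5 at 0.08 (95% interval -0.12 to 0.29), all with a limma adjusted p of 0.9999.

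The difference between the sides was tested as an interaction of side with surgery over all 24 libraries, in which 0.637% of genes were called (0.631% higher and 0.00554% lower). Of the members Itgam alone was called, with a log2 value of 1.34 (SE 0.145, limma adjusted p = 1.42e-05). Itgb2 had 0.71 (95% interval 0.22 to 1.2002, adjusted p = 0.397) and Itgb5 had 0.39 (95% interval 0.12 to 0.65, adjusted p = 0.389). Leaving out each library in turn left Itgb2 uncalled in 23 of 24 fits. The exception was unoperated SNI male replicate 3, which held 10.8 CPM where the next unoperated SNI library held 5.98 CPM. Without it the interaction was 0.88 (limma adjusted p = 0.0162). Without it and the operated library with most neutrophil markers, a choice made after seeing the data, it was 0.99 (limma adjusted p = 0.00169).

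After SNI, the operated side was compared with the unoperated side, a comparison that shares its operated SNI libraries with the one above and in which 6.85% of genes were called (3.56% higher and 3.29% lower). The titles run in 12 consecutive pairs of an operated and an unoperated library of the same surgery and sex, the labels do not say whether a pair is from the same animal, and the fits treated all libraries as independent. Itgam (log2 1.68, adjusted p = 3.83e-10), Itgb2 (1.16, adjusted p = 9.62e-05) and Itgb5 (0.51, adjusted p = 0.00122) were called by limma, 3 of 10. After sham surgery no member and no gene was called (0%), with 742 genes at an unadjusted p under 0.05. There Itgam averaged 25.4 ± 2.42 CPM on the operated side and 20.02 ± 1.80 CPM on the unoperated side, a log2 fold change of 0.34 (95% interval 0.13 to 0.56, unadjusted p = 0.00315, limma adjusted p = 0.9998). Itgb2 averaged 7.22 ± 1.60 CPM and 5.24 ± 0.856 CPM, a log2 fold change of 0.45 (unadjusted p = 0.0134, limma adjusted p = 0.9998).

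**Figure D2:**
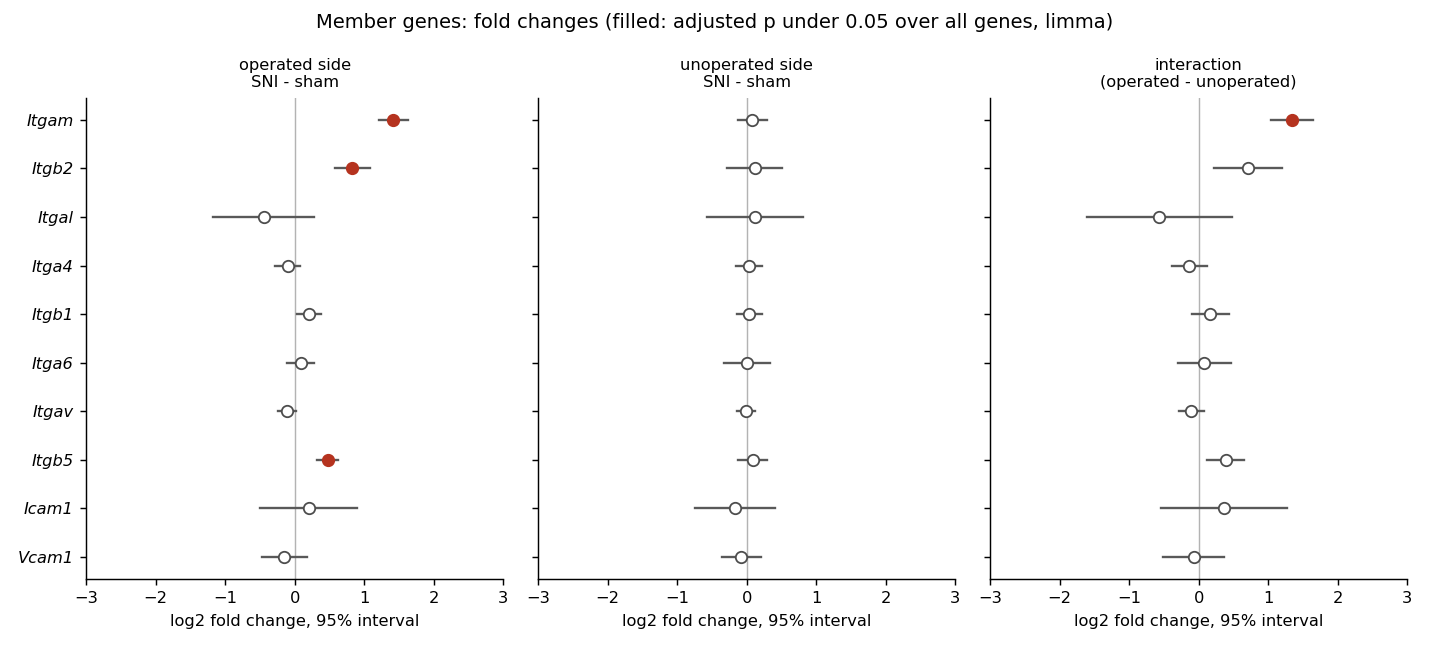
Log2 fold change with its 95% interval (horizontal axis) of the 10 genes on the operated side, on the unoperated side and for the interaction of side with surgery, with filled points past the limma threshold. Itgam, Itgb2 and Itgb5 are filled on the operated side, none on the unoperated side, and Itgam alone in the interaction.

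The sexes were compared on the operated side with 3 libraries a group. In females Itgam was the member called, 1 of 10 beside 0.41% of all genes (0.388% higher and 0.0222% lower), with 63.3 ± 11.7 CPM after SNI and 24.8 ± 3.39 CPM after sham surgery (log2 1.34, limma adjusted p = 0.000652). In males Itgam (log2 1.497, adjusted p = 9.54e-05), Itgb2 (1.09, adjusted p = 0.00245) and Itgb5 (0.61, adjusted p = 0.0033) were called, 3 of 10 beside 2.03% of all genes (1.95% higher and 0.0775% lower). Every male operated sham library is titled 33 to 48, whereas male SNI replicates 2 and 3 are titled 49 and 51. Surgery and title run are therefore partly confounded in males. Replicate 3 of both female groups is titled 49 to 56. In females Itgb2 stood at 0.57 (adjusted p = 0.311) and Itgb5 at 0.34 (adjusted p = 0.309). The test of the difference itself called no member and no gene (0%; 1825 at an unadjusted p under 0.05).

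Itgb2 gave a difference between the sexes of -0.52, female minus male (95% interval -1.02 to -0.02, limma adjusted p = 0.482), and Itgb1 gave -0.42 (95% interval -0.77 to -0.07, adjusted p = 0.451). Itgb1 had 150 to 162 CPM in the male operated SNI libraries, above all sham libraries, and 91.4 to 132 CPM in the female ones. Operated sham libraries had 107 to 123 CPM in males and 96.9 to 117 CPM in females. Without operated sham female replicate 1 the female value of Itgb2 was 0.79 and called (limma adjusted p = 0.0173).

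Because microglia markers moved with SNI, each member was set against them within a library, as its log2 CPM minus the mean log2 CPM of the 13 markers. An exact permutation of the surgery labels within sex over 400 splits cannot give a two-sided p below 0.005. Itgam stood higher relative to the markers after SNI, at 0.90 ± 0.065 against 0.42 ± 0.141 after sham surgery (SD, n = 6 each), a difference of 0.48 (exact permutation p = 0.005). Itgb2 stood at -1.52 ± 0.196 after SNI and -1.41 ± 0.265 after sham surgery, a difference of -0.11 (exact permutation p = 0.54). Against the median of the markers in place of their mean, the difference for Itgam was smaller, at 0.31 (exact permutation p = 0.005). With the median the differences were -0.28 for Itgb2 (exact permutation p = 0.04) and -0.90 for Icam1 (exact permutation p = 0.03). Itgb5 fell relative to the markers by 0.47 (exact permutation p = 0.005). The remaining members were lower by 0.74 to 1.39, each at p = 0.005 except Icam1 (-0.74, exact permutation p = 0.075). The markers themselves rose after SNI, so a gene that does not move falls against them by as much. The lower values of these members and of Itgb5, with their p-values, therefore largely restate that rise. None of the 10 genes was itself called lower by limma. The p-values printed for these 10 tests are not adjusted for their number.

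**Figure D3:**
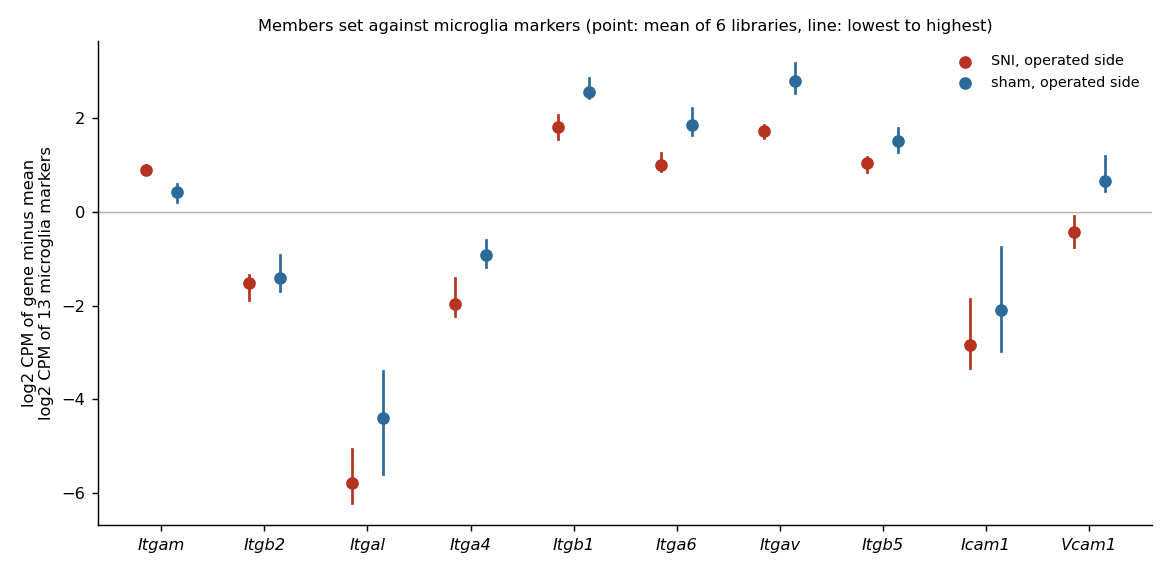
Log2 CPM of each gene minus the mean log2 CPM of 13 microglia markers (vertical axis) on the operated side, with the mean of 6 libraries as a point and a line from the lowest to the highest library, SNI in red left of sham in blue. Itgam is the gene whose SNI libraries lie above its sham libraries, and the Itgb2 ranges overlap.

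The β2 chain was also set against the sum of the α chains it pairs with, Itgam, Itgal, Itgax and Itgad, in TPM. This ratio was chosen after the values were seen. It was 0.296 ± 0.0432 in operated SNI libraries and 0.420 ± 0.0643 in operated sham libraries, and 0.392 ± 0.0780 in unoperated SNI libraries and 0.383 ± 0.0670 in unoperated sham libraries (SD, n = 6 each). On the operated side the ratio after SNI was 0.704 of that after sham surgery (log2 -0.51), which restates that the fold of Itgam, most of the denominator, was larger than that of Itgb2. Itgam made up 95.7% ± 0.752 of the summed α chain TPM after SNI and 90.3% ± 1.35 after sham surgery on the operated side, and 88.4% ± 1.01 and 88.5% ± 2.41 on the unoperated side.

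Over the 24 libraries, the genes whose pattern was most like that of Itgb2 were Fcer1g, the γ chain of Fc receptors, Myo1f, a myosin of leukocytes, Ptpn6, the phosphatase SHP-1, Nfam1 and the Fc receptor gene Fcgr2b. Their mean absolute differences from Itgb2 in centred log2 CPM were 0.152, 0.158, 0.1601, 0.161 and 0.162. Itgam ranked 114 at 0.258 and Itgb5 ranked 276 at 0.3503, whereas Itgal ranked 15899 at 0.617. Itgal had only 7 to 96 reads a library, so sampling noise weighs more in its distance than in those of Itgam and Itgb5.

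The rest of the adhesion machinery moved in a few genes. Of 17 other integrin subunit genes tested, of 18 listed, 2 rose and none fell on the operated side, with a median log2 fold change of 0.01. Of all genes tested, 1.9% were called higher on that side and 0.122% lower. Itga7, the α7 chain of a laminin receptor known from muscle and from regrowing motor axons, had 26.9, 58.0 and 74.5 CPM in the lowest, median and highest operated SNI library, against 26.5, 27.8 and 30.4 CPM in operated sham libraries (log2 0.89, SE 0.126, limma adjusted p = 0.00322). Itgax, the αX chain that also pairs with β2, had 0.336, 0.814 and 1.06 CPM after SNI and 0.246, 0.313 and 0.514 CPM after sham surgery (log2 0.99, adjusted p = 0.0435). The Itga7 call was lost in the libraries titled 33 to 48 (limma adjusted p = 0.324) and without the libraries highest in red cell and neutrophil markers (adjusted p = 0.0522), with log2 fold changes of 0.87 and 0.89 there. The Itgax call rests on 8 to 34 reads a library and held in 7 of 23 alternative settings. The most abundant subunits that were not called were Itgb8 (170 ± 12.2 CPM after SNI and 187 ± 16.4 CPM after sham surgery), Itgb4 (56.5 ± 14.7 and 55.4 ± 2.81 CPM) and Itga3 (48.7 ± 3.04 and 47.2 ± 3.29 CPM).

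Itga7 varied among the operated SNI libraries by sex. The male ones had 64.5 to 74.5 CPM and the female ones 26.9, 51.5 and 41.7 CPM in replicates 1, 2 and 3, with log2 fold changes of 1.39 in males (limma adjusted p = 0.00226) and 0.39 in females (adjusted p = 0.58). The test of the difference, -1.01 female minus male, had an adjusted p of 0.424. Markers of motor neurons, which lie in the ventral horn, varied beside it: their summed level was 122 to 175 CPM in the male operated SNI libraries and 21.04, 69.5 and 41.3 CPM in the female ones. In operated sham libraries they ran from 73.9 to 286 CPM while Itga7 stayed between 26.5 and 30.4 CPM. With the motor neuron level as a covariate Itga7 was at 1.01 (limma adjusted p = 0.0151) and Itgb1, the β chain of α7, at 0.35 (adjusted p = 0.0617). That fit used a common slope for SNI and sham libraries, and the markers were themselves lower after SNI in estimate (median log2 fold change -0.81). It therefore cannot separate surgery from motor neuron content. The part of those cells in the Itga7 and Itgb1 levels was not tested.

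**Figure D4:**
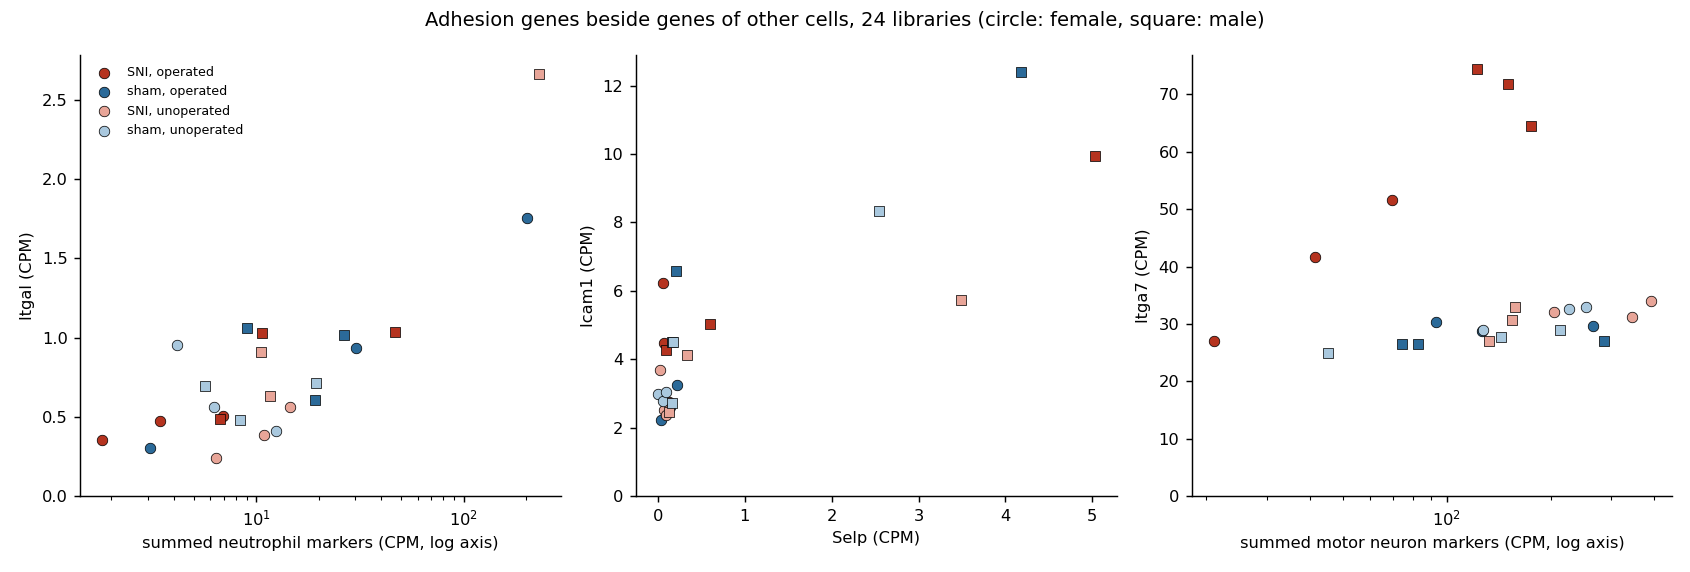
Levels of 3 adhesion genes (vertical axes, CPM from 0) beside genes of other cells in all 24 libraries: Itgal against summed neutrophil markers, Icam1 against Selp and Itga7 against summed motor neuron markers, with circles for female and squares for male libraries. Single libraries carry the high values of Itgal and Icam1, and the highest values of Itga7 are in operated SNI libraries.

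The share of all genes called on the operated side was 1.9% higher and 0.122% lower. Among genes that activate integrins or link them to the cytoskeleton, 4 of 22 tested, of 23 listed, rose and none fell (median 0.04). They were Fermt3, the blood-cell kindlin, at 8.79 ± 1.55 CPM after SNI and 4.93 ± 0.772 CPM after sham surgery (log2 0.82, limma adjusted p = 0.00104), Apbb1ip, the Rap1 adaptor RIAM (0.70), Parvg, the leukocyte parvin (0.82), and Fyb, the adaptor ADAP (0.96). Fyb and Parvg had every operated SNI library above every operated sham library, as did 1.21% of all genes tested. Talins, which bind the capital motif of the β tails printed above, were not called: Tln1 had 127 ± 23.7 CPM after SNI and 108 ± 4.61 CPM after sham surgery (log2 0.22, adjusted p = 0.163), and Tln2 had 198 ± 13.3 and 202 ± 9.14 CPM. Parva, the widely expressed parvin, had 175 ± 4.63 and 181 ± 9.94 CPM. Over 4.29% of the exon length of Fyb a pseudogene lies on the same strand, and over 5.92% another gene lies opposite. Microglia marker levels, given above, were higher in the same libraries, and their part in these 4 genes was not tested. In the libraries titled 33 to 48 alone Fyb stayed called, whereas Fermt3 (log2 0.64, limma adjusted p = 0.177), Apbb1ip (log2 0.51, adjusted p = 0.312) and Parvg (log2 0.80, adjusted p = 0.103) did not.

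Among selectins and genes of endothelium and cell junctions, 2 of 17 tested, of 18 listed, rose and none fell (median 0.02). Over all genes the share called higher was 1.9%. Selplg, the selectin ligand PSGL-1, which microglia also express, had 24.6, 35.8 and 41.9 CPM in the lowest, median and highest operated SNI library and 16.6, 17.7 and 20.8 CPM in operated sham libraries, with no overlap (log2 0.93, limma adjusted p = 2.75e-06). F11r, junctional adhesion molecule A, had 16.3 ± 2.65 CPM after SNI and 11.02 ± 0.880 CPM after sham surgery (0.54, adjusted p = 0.000959). In the libraries titled 33 to 48 alone Selplg stayed called and F11r did not, at a log2 fold change of 0.61 (limma adjusted p = 0.0837). Cd99l2 (152 ± 5.86 and 158 ± 9.73 CPM), Alcam (109 ± 6.11 and 106 ± 3.17 CPM) and Jam2 (91.0 ± 7.21 and 101 ± 5.70 CPM) were the most abundant of those not called.

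Of the matrix and soluble ligands 2 of 20 tested, of 23 listed, rose and none fell (median -0.03). Again 1.9% of all genes were called higher. Tgfb1, whose latent form is released by αv integrins, had 7.92 ± 1.73 CPM after SNI and 5.29 ± 0.630 CPM after sham surgery (log2 0.56, limma adjusted p = 0.0139; log2 0.40 and adjusted p = 0.524 in the libraries titled 33 to 48 alone), and Lama5, a laminin chain, had 24.5 ± 2.93 and 19.7 ± 2.42 CPM (0.31, adjusted p = 0.0205, past the threshold in 13 of 23 alternative settings). Spp1, osteopontin, had 76.4 ± 36.2 and 81.3 ± 44.04 CPM, Fn1, fibronectin, 87.3 ± 51.7 and 82.7 ± 24.7 CPM, and Lamc1 73.6 ± 11.1 and 74.4 ± 3.92 CPM, with none of the 3 called. Itgb6, Fermt1, Madcam1, Fga, Fgb and Fgg were too low to test.

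**Figure D5:**
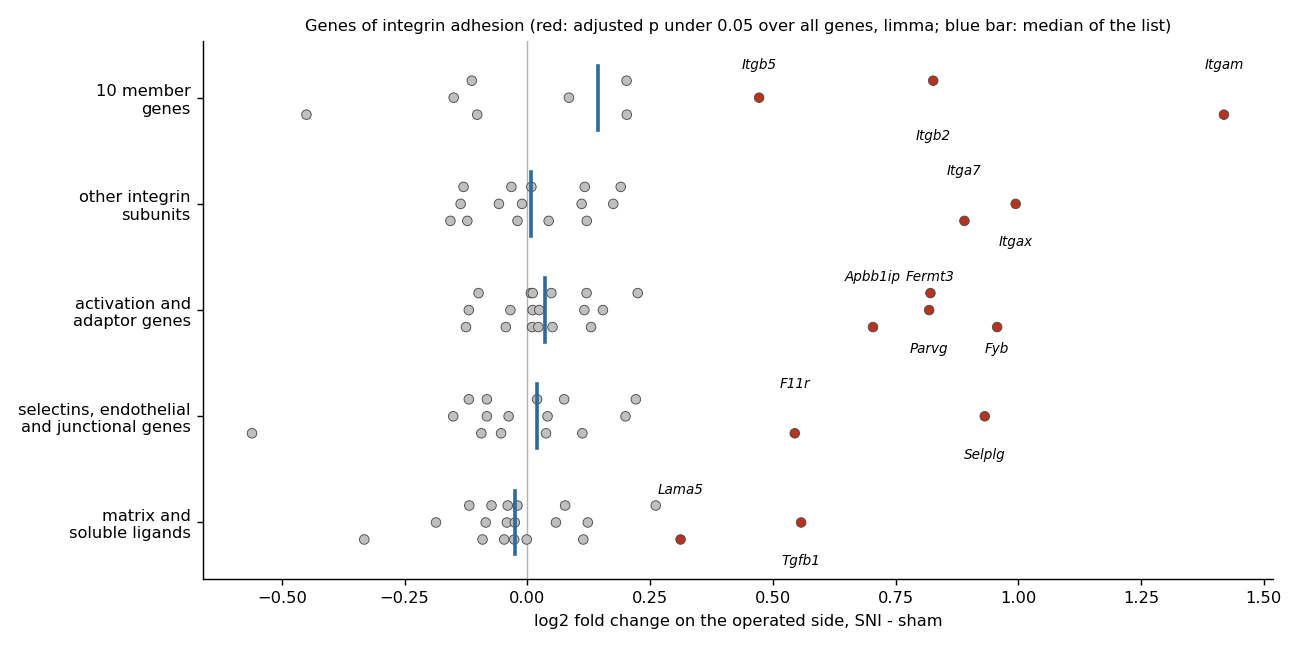
Log2 fold change on the operated side (horizontal axis, SNI minus sham) of the 10 member genes and of every tested gene in 4 further lists of integrin adhesion, with called genes in red and named and a blue bar at the median of each list. Most genes lie near 0, and the called ones all lie to the right.

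In the interaction of side with surgery, Itga7 (log2 0.80, limma adjusted p = 0.00462), Fyb (1.01, adjusted p = 0.000953), Parvg (0.79, adjusted p = 0.00699), Selplg (0.82, adjusted p = 8.04e-05) and F11r (0.55, adjusted p = 0.0307) were called as well, against 0.637% of all genes. None of the 4 lists had a gene called on the unoperated side or between the sides after sham surgery.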

How the data were processed

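The deposited tables, 1 per library, hold whole-number read counts per Ensembl gene identifier, made by the authors from polyA RNA with STAR on GRCm38 (mm10), per the submitters' processing notes; which name no counting tool or strand setting. The 5 closing entries that name no gene stayed out of library sizes: reads on no feature were 12.3 to 15.8% and reads aligned more than once 9.92 to 12.8%. Genes were kept with at least 10 reads, scaled to the median library, in at least 3 libraries and at least 15 in all (18058 genes). From the deposited counts, log2 CPM with TMM factors (0.950 to 1.04) and a prior count of 2 were computed. They were tested with limma 3.58.1 (trend and robust settings, R 4.3.3), with Benjamini-Hochberg adjustment over all genes kept. Each fit gave every group of surgery, sex and, where both sides entered, side its own mean. Contrasts were averaged over the sexes, except those within or between the sexes. A count model was not run. TPM used exon lengths of GENCODE M21, which named 40340 of 41388 identifiers. Fold changes are on the log2 scale with that prior count, which understates changes of low genes. Replicates are numbered in accession order, and no 2 libraries of a group agreed within sampling noise (chi-square per degree of freedom 6.50 to 34.0 over 24 pairs). The genes named are the members, the called genes of 4 adhesion lists and the 3 most abundant uncalled genes of each. The members and lists were chosen with earlier results of these data known. Alternatives covered normalization, filter, prior count, covariates, title runs and each library left out. Python 3.11.15, numpy 2.4.6, pandas 2.3.3, matplotlib 3.10.9 and Biopython 1.88 were used.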

Additional observations from a re-analysis of the deposited data

Results flagged for a closer look

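In 40 groups of 6 libraries, 1 for each member and group, 7 had a single library far from the others, and chance sets apart about 1 in 20 groups. The groups are not independent, since all members were read in the same libraries, so the count was not tested against that rate. Unoperated SNI male replicate 3, the library with the most neutrophil markers, held 10.8 CPM of Itgb2, where the next library of its group held 5.98 CPM. It also held 2.66 CPM of Itgal, where the next held 0.912 CPM. Operated sham female replicate 1, the operated library with the most neutrophil markers, held 12.5 CPM of Itga4, where the next held 10.01 CPM. Operated sham male replicate 1 held 152 CPM of Itgav, where the next held 132 CPM. Unoperated sham male replicate 2 held 8.32 CPM of Icam1 and 36.6 CPM of Vcam1, where the next libraries held 4.50 and 26.8 CPM. Operated sham male replicate 2 held 47.6 CPM of Vcam1, where the next held 27.6 CPM. Both of these libraries were among the 4 with more than 1 CPM of Selp. A difference between the sides passed its test for Itgam, with an interaction of 1.34 on the log2 scale.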

How the results depend on the processing

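No result changed direction past the threshold. The run of libraries titled 33 to 48 moved the most: 74 genes and 1 member were called on the operated side, 32 genes in the interaction, 175 between the sides after SNI, and 0 genes and 0 members in females and in males (Itgam 1.26, adjusted p = 0.225, and 1.58, adjusted p = 0.0812, by limma). It has fewer libraries. With no filter, 8 genes were called on the unoperated side and 1 between the sides after sham surgery. Without the libraries highest in neutrophil markers, chosen after seeing the data, the interaction called 2 members. Without those above 1 CPM of Selp, also chosen after seeing the data, it called 76 genes, against 500 between the sides after SNI and 177 in males. Leaving out each library in turn gave 273 to 427 genes on the operated side (3 members each time), 0 to 1 on the unoperated side, 100 to 158 (1 to 2 members) in the interaction and 624 to 2111 between the sides after SNI, highest without unoperated female replicate 1, lowest without unoperated female replicate 3, and 767, 705 and 697 without unoperated male replicate 1, operated female replicate 2 and operated male replicate 3. It gave 0 to 1 between the sides after sham surgery and for the sexes, 42 to 107 (1 to 2 members) in females, lowest without SNI replicate 2 (46 without sham replicate 3), and 200 to 424 (3 to 4 members) in males, lowest without sham replicate 3 (206 and 226 without SNI replicates 3 and 2). In females Itgb5 was called at 0.45 without SNI replicate 1 (limma adjusted p = 0.0232). Across other settings the operated side gave at most 401 genes. Among uncalled members the sign of Itga6, Itgav and Icam1 varied with the setting. A sum of Itgam with Gm49368 could not be given, since the tables hold no such identifier. No paired analysis was possible because the labels give no replicate numbers and do not say that consecutive titles share an animal. Depth limits Itgal and Itgax, with under 100 reads in every library.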
